A study of Rattus norvegicus with 8 samples.

Results

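Zinc transporters and metallothioneins were followed on arrays of rat semicircular canal duct (SCCD) epithelium, with and without dexamethasone. The 9 genes are the zinc importers Slc39a8 and Slc39a1, the zinc transporters Slc30a1, Slc30a2, Slc30a4 and Slc30a7, and the metallothioneins Mt1, Mt2A and Mt3. All probe sets annotated with one of these symbols were taken, which gave 10 of the 15866 probe sets other than controls, for 9 of the 10411 genes that have a probe set of their own. Of these 10, 9 carry 1 gene symbol each and 1 is shared by Mt1, Mt1f and Ttr. The genes were chosen with the dexamethasone difference on these arrays already known, so that difference is given below as a description, with no p-value for any of them. Whether a probe set was past the threshold of the fit over the whole array is stated in the same sense and is no independent evidence.

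The canal duct is the part of the vestibular labyrinth that absorbs sodium from endolymph, and glucocorticoids stimulate that absorption. Primary cultures were grown from the canals of neonatal Wistar rats and either received 100 nM dexamethasone, a synthetic glucocorticoid (dexamethasone, n = 4 arrays), or were left untreated (control, n = 4 arrays). Total RNA of each culture sample was amplified by in vitro transcription in 2 rounds, and 1 Affymetrix array of each sample is used here. The paper names an A and a B type of rat array, and the titles of the arrays used here end in A. A gene without a probe set here may therefore be carried by the B type. Whether the 4 samples of a group came from separate dissections, whether animals were pooled, and how long the cultures for the arrays were exposed are not given in the sources used here, so the p-values below measure only the spread between these samples, which may be technical.

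Zinc enters the cytosol through ZIP proteins (the Slc39 family) and leaves it, towards the outside or into organelles and vesicles, through ZnT proteins (the Slc30 family). Metallothioneins are small cysteine-rich proteins that bind zinc and copper in the cytosol. Their genes are known to be induced by heavy metals through the metal-responsive transcription factor Mtf1, which binds metal response elements in their promoters, and also by glucocorticoids.

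The scaling named by the labels had been met on replicates 1 and 2 of both groups (trimmed means of 500.097 to 500.101) but not on replicates 3 and 4 (202 to 336), so each array was rescaled to a trimmed mean of 500. Signals are in arbitrary units and are compared between arrays for 1 probe set at a time. A silent-gene level, set on each array at the 95th percentile over 52 genes that belong to other organs, lay between 135 and 257 over the 8 arrays. Sgk1, the glucocorticoid-regulated kinase that keeps sodium channels in the membrane, had signals of 2789 to 3736 on dexamethasone arrays and 272 to 419 on control arrays (log2 difference 3.19, adjusted p = 1.09e-06, limma), so the arrays carried the response their labels name. All 9 epithelial markers with a probe set were above the silent-gene level on all 8 arrays, with Epcam, Cdh1 and Krt8 among them. The 3' to 5' ratio of the beta-actin control probe sets, which is larger where RNA or its copies are shorter, was 6.17 to 8.07 on dexamethasone arrays and 8.10 to 13.7 on control arrays, highest on control replicate 3.

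Of the 10 probe sets, 7 had a mean signal of at least 100 and were tested with the rest of the array. The probe sets of Slc39a8 and Mt2A and the shared Mt1 probe set were past the limma threshold, all 3 higher with dexamethasone, and 4 were not past it. None was lower. Over all 10368 probe sets tested, 2.69% were past the threshold, 1.88% higher and 0.81% lower, and nothing is read from the count of 3, because the genes were chosen with it known. The median log2 difference was 0.85 over these 7 probe sets and -0.02 over all probe sets tested. For the same reason nothing is read from this median or from the shares that follow. On 4 of the 7, those 3 and Slc30a2, all dexamethasone arrays stood above all control arrays, as they did on 5.57% of all probe sets tested, and on none of the 7 did all of them stand below (5.46% of all). A difference of 2-fold or more was seen on 3 of the 7 and, in the same direction, on 1.06% of all probe sets tested. In cultures of mixed cells, more cells of a type and more RNA per cell cannot be told apart.

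**Figure D1:**
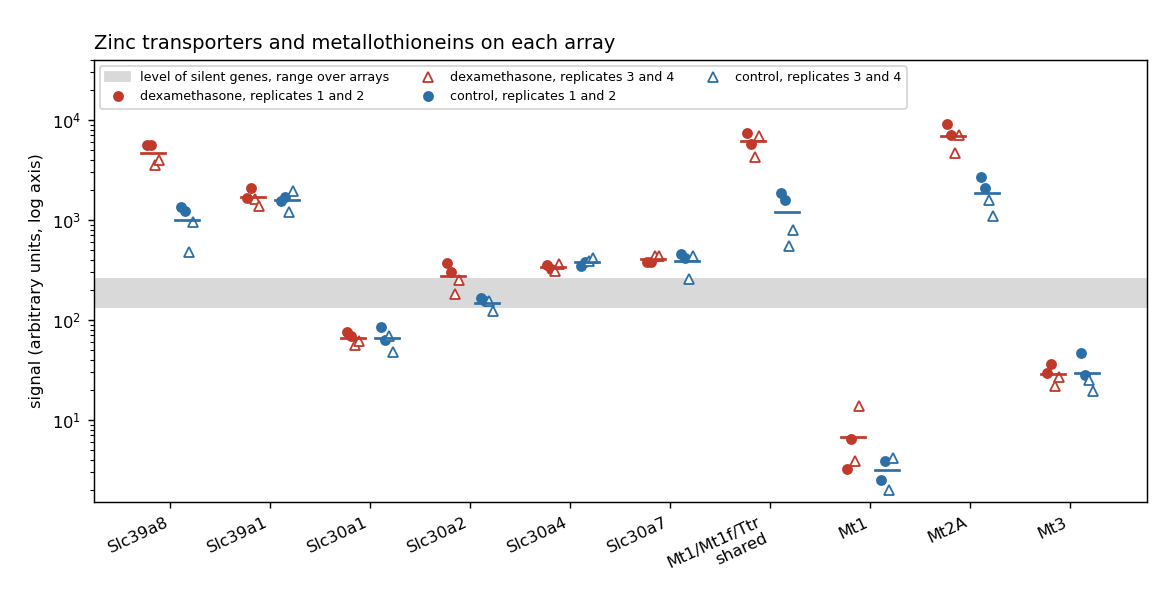
Rescaled signal of each of the 10 probe sets on each array (vertical log axis, arbitrary units), with dexamethasone arrays in red to the left of control arrays in blue, filled circles for replicates 1 and 2, open triangles for replicates 3 and 4, and a bar at the mean of 4. The grey band is the range of the silent-gene level (135 to 257). Slc39a8, Slc30a2, the shared Mt1 probe set and Mt2A have no overlap between the groups; heights of different probe sets are not comparable with each other.

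Slc39a8 encodes ZIP8, an importer of the plasma membrane that carries zinc and also manganese and cadmium. Its signal was 5596, 5647, 3510 and 4016 on dexamethasone replicates 1 to 4, against 1336, 1219, 482 and 965 on control replicates 1 to 4. All 4 dexamethasone arrays were above all 4 control arrays, and in both groups replicate 3 was the lowest. The means were 4692 ± 1093 with dexamethasone and 1000 ± 379 in control (SD, n = 4 each), a log2 difference of 2.30 (SE 0.28, 95% confidence interval 1.69 to 2.91) or 4.92-fold. By size of the log2 difference Slc39a8 stood 12th of 10368 probe sets, counted from the most positive. Without control replicate 3, the array that needed the largest rescaling factor (2.48), the log2 difference was 1.98.

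Slc39a1 encodes ZIP1, a zinc importer found in most tissues. Its signal was 1665, 2081, 1604 and 1389 on dexamethasone replicates 1 to 4 and 1546, 1713, 1208 and 1936 on control replicates 1 to 4. The groups overlapped, and only dexamethasone replicate 2 was above the highest control array. The log2 difference of 0.08 (SE 0.16, 95% confidence interval -0.27 to 0.43) was not past the threshold. The array holds probe sets for 7 of the 12 other ZIP genes on the list, and all 7 were tested. Of these, Slc39a4 was above the silent-gene level on 0 arrays and Slc39a3 on 4, so little can be read from them. None was past the threshold in either direction by limma, and 1 had an unadjusted p under 0.05. Their median log2 difference was -0.20. The 2 with the smallest p were Slc39a13, a ZIP protein of the secretory pathway (1087 ± 91.9 with dexamethasone, 1294 ± 136 in control, SD, n = 4 each; log2 difference -0.25, SE 0.11, adjusted p = 0.302, limma), and Slc39a10, an importer of the plasma membrane (966 ± 84.5 with dexamethasone, 1230 ± 268 in control, SD, n = 4 each; log2 difference -0.32, SE 0.16, adjusted p = 0.345, limma). Slc39a14, the family member closest in sequence to Slc39a8, had a log2 difference of 0.21 (95% confidence interval -0.18 to 0.61, adjusted p = 0.623, limma), and was named after its value had been seen.

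Slc30a2 encodes ZnT2, which loads zinc into vesicles and is best known from secretory cells such as those of the lactating mammary gland. Its signal was 368, 302, 183 and 252 on dexamethasone replicates 1 to 4 and 166, 155, 153 and 122 on control replicates 1 to 4. It was above the silent-gene level of the same array on 4 of 4 dexamethasone arrays and on 0 of 4 control arrays. This split depends in part on the level, which was 135 on dexamethasone replicate 3 and 185 on control replicate 1. The 183 of dexamethasone replicate 3 was under the latter, and the signals of control replicates 1 to 3 were above the former. With control signals under the level, the size of the fold is uncertain. Dexamethasone replicate 3 was the closest to the control arrays. The means were 276 ± 77.9 with dexamethasone and 149 ± 18.9 in control (SD, n = 4 each), a log2 difference of 0.85 (SE 0.21, 95% confidence interval 0.39 to 1.32) or 1.81-fold, which was not past the threshold. With 1 array left out at a time it was 0.70 to 1.04, past the threshold without dexamethasone replicate 3 (1.04), the array closest to control, and not past it without any of the other 7. With the array set described below as a block, the same difference of 0.85 was past the threshold.

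The other 3 ZnT genes chosen had overlapping groups. Slc30a4 encodes ZnT4, a vesicular transporter whose loss in the mouse leaves milk poor in zinc. Its signal was 354, 321, 311 and 367 on dexamethasone replicates 1 to 4 and 345, 380, 388 and 417 on control replicates 1 to 4, a log2 difference of -0.18 (SE 0.12, 95% confidence interval -0.45 to 0.09). Slc30a7, which encodes the Golgi transporter ZnT7, had signals of 383, 379, 436 and 431 on dexamethasone replicates 1 to 4 and 454, 420, 257 and 435 on control replicates 1 to 4, a log2 difference of 0.09 (SE 0.18, 95% confidence interval -0.30 to 0.48). Its sign turned without control replicate 3 (-0.10). Neither was past the threshold. Slc30a1 encodes ZnT1, the exporter of the plasma membrane and a known target of Mtf1. Its probe set was at 56.5 to 75.0 on dexamethasone arrays and 48.1 to 84.8 on control arrays, under the filter and above the silent-gene level on 0 of 8 arrays. It was not tested, and no change at this signal could be read.

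Of the 6 other ZnT genes, 4 had a probe set, and all 4 were tested. None was past the threshold in either direction by limma and none had an unadjusted p under 0.05. Their median log2 difference was -0.06. Slc30a3, a transporter of synaptic vesicles, had a mean of 453 ± 71.4 with dexamethasone and 517 ± 119 in control (SD, n = 4 each; log2 difference -0.18, adjusted p = 0.673, limma). Slc30a5, a transporter of the early secretory pathway, had 676 ± 135 with dexamethasone and 719 ± 121 in control (SD, n = 4 each; log2 difference -0.09, adjusted p = 0.839, limma).

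**Figure D2:**
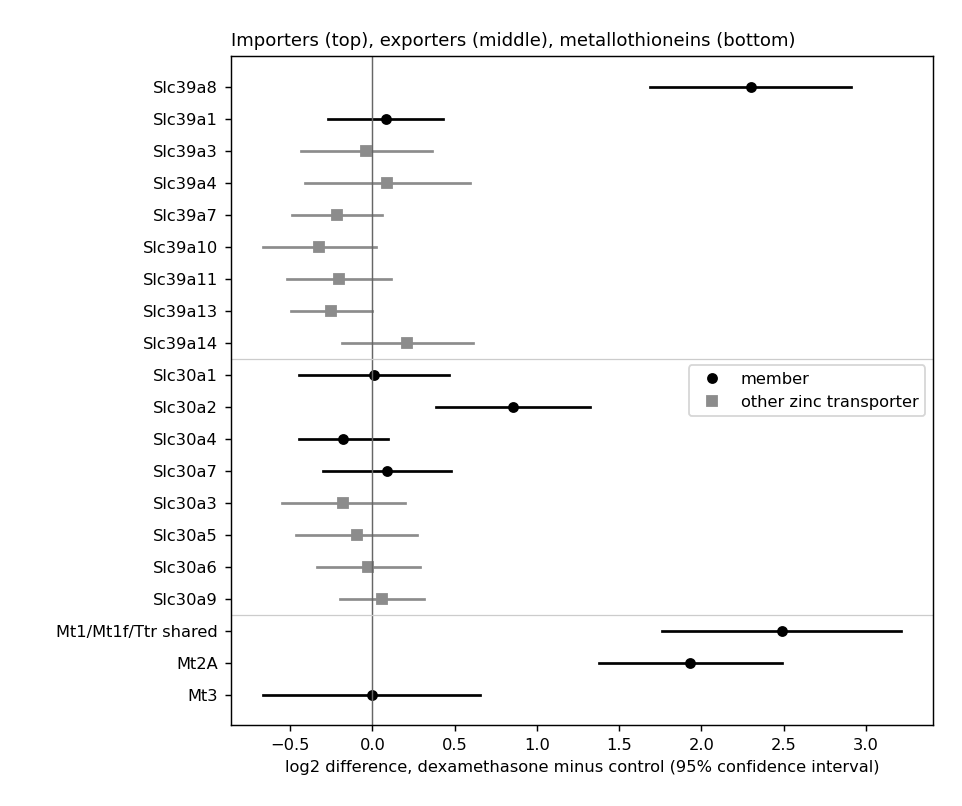
Log2 difference of signal, dexamethasone minus control, with its 95% confidence interval from the limma fit (horizontal axis), for the chosen genes (black circles) and the other zinc transporters tested (grey squares). Slc39a8 (2.30), the shared Mt1 probe set (2.49) and Mt2A (1.93) lie to the right of all the others, and the 11 transporters not chosen run from -0.32 to 0.21. Among these 11, Slc39a4 was above the silent-gene level on no array. Slc30a1 and Mt3, under the filter, are drawn from a fit over all probe sets.

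Mt1 and Mt2A encode the metallothioneins found in most tissues. The shared probe set of Mt1 cannot be assigned to 1 of its 3 annotated genes. Mt1f had no probe set of its own. A probe set of Ttr alone, the gene of the thyroid hormone carrier transthyretin, was at 78.6 to 111 on dexamethasone arrays and 69.9 to 115 on control arrays and above the silent-gene level on 0 arrays. The shared probe set had signals of 7469, 5700, 4291 and 6966 on dexamethasone replicates 1 to 4, against 1856, 1593, 547 and 794 on control replicates 1 to 4. All 4 dexamethasone arrays were above all 4 control arrays, and replicate 3 was the lowest of each group. The means were 6106 ± 1421 with dexamethasone and 1198 ± 626 in control (SD, n = 4 each), a log2 difference of 2.49 (SE 0.33, 95% confidence interval 1.76 to 3.22) or 5.61-fold, 8th of 10368 counted from the most positive. A second probe set, annotated to Mt1 alone, was at 3.20 to 13.7 on dexamethasone arrays and 1.98 to 4.17 on control arrays. All 8 values were under the floor of 16, so it gave no fold.

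Mt2A had signals of 9136, 7003, 4650 and 7077 on dexamethasone replicates 1 to 4 and 2673, 2102, 1597 and 1102 on control replicates 1 to 4. The groups did not overlap, and the lowest array was replicate 3 with dexamethasone and replicate 4 in control. The means were 6967 ± 1833 with dexamethasone and 1869 ± 674 in control (SD, n = 4 each), a log2 difference of 1.93 (SE 0.25, 95% confidence interval 1.38 to 2.49) or 3.82-fold, 19th of 10368. Mt3 encodes the metallothionein best known from brain. Its probe set was at 22.0 to 36.3 on dexamethasone arrays and 19.5 to 46.3 on control arrays, above the silent-gene level on 0 of 8 arrays and under the filter. Mt4, the metallothionein of stratified squamous epithelium, was not analysed here.

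The promoters of Mt1 and Mt2A are shown because both genes are textbook targets of metals and of glucocorticoids. They are the 250 bases before the annotated start, from RefSeq on build GRCr8, Mt1 at chr19:10832976-10833225 and Mt2A at chr19:10838709-10838958, both on the minus strand and printed 5′ to 3′ along the gene. Capitals mark matches to the core of the metal response element, searched as TGCACNC or TGCGCNC on both strands.
Mt1: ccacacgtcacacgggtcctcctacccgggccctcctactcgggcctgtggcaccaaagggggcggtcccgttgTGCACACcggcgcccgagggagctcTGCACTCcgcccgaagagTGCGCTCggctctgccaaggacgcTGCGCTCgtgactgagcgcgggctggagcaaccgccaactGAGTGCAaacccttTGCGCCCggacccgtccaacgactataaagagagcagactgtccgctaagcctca
Mt2A: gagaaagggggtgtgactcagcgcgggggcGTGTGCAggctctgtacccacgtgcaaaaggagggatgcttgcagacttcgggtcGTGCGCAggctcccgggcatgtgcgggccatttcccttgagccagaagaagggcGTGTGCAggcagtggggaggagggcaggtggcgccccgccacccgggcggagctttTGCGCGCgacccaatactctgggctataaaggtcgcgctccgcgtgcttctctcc
The Mt1 promoter holds 6 matches, with first bases from -176 to -55 relative to the start, and the Mt2A promoter holds 4, with first bases from -220 to -55. No match of one overlaps another.

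In windows of 300 bases (250 before and 50 after the start), 24.2% of 33469 rat windows held at least 1 match to the metal core. At least as many matches as in Mt1 were found in 0.0388% of windows, and at least as many as in Mt2A in 0.439%. Of the members, 8 genes had 9 windows, with 2 windows for Slc30a2. Mt3 and Slc30a4 and the first window of Slc30a2 held 3 matches each (1.68% of windows hold at least as many), Slc30a1 held 2 (6.36%), Slc39a1 held 1, and Slc39a8 and the second window of Slc30a2 held 0. Among genes with a probe set past the threshold, Mt2A had 4 matches and Slc39a8 had 0. Mt1 had 6, but the probe set past the threshold is shared with Mt1f and Ttr and cannot be assigned to Mt1. Mt3, under the silent-gene level, had 3. Whether matches bear on the dexamethasone difference was not tested. The hexamer AGAACA, an arm of the palindromic glucocorticoid response element, was searched on both strands and was in 20.7% of all windows. The second window of Slc30a2 held 3 hexamers (0.436% of windows hold at least as many), and the other 8 windows held 0, those of Mt1, Mt2A and Slc39a8 included. No window held both motifs, so no metal core match overlapped a hexamer. A match is only a run of letters, and these windows leave out more distant sequence.

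**Figure D3:**
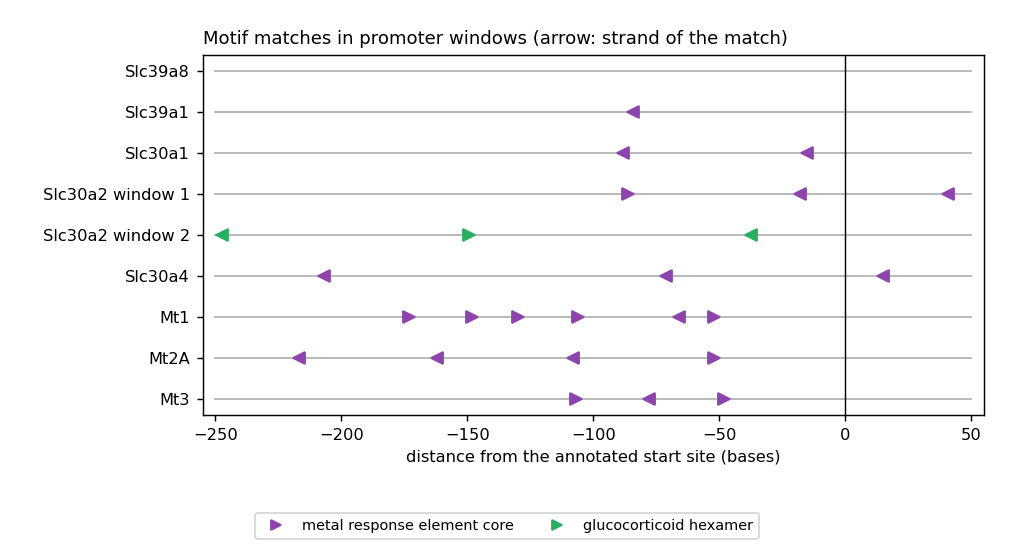
Positions of matches to the metal response element core (purple) and the glucocorticoid hexamer (green) in the promoter windows of the 8 genes, as distance in bases from the annotated start (horizontal axis), with the arrow giving the strand of the match. Mt1 has 6 metal core matches and Mt2A has 4, Slc39a8 has none of either motif, and hexamers are seen in the second window of Slc30a2 alone.

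Replicates 3 and 4, the arrays deposited under the scaling target, were compared with replicates 1 and 2 in a fit that also held treatment, a contrast that the choice of genes had not used. The array set is known only from the deposited scaling and the replicate numbers and may be technical. Of the 7 probe sets, 1 was past the threshold, against 3.49% of all tested (2% lower). Slc39a8 was lower on replicates 3 and 4, with a mean of 2243 on them and 3449 on replicates 1 and 2 (log2 difference -0.74, SE 0.18, adjusted p = 0.0488, limma). Slc39a8 lost the call without control replicate 1 (log2 difference -0.68, adjusted p = 0.152) or 2 (-0.74, 0.100) and without dexamethasone replicate 1 (-0.78, 0.0997), 2 (-0.77, 0.136), 3 (-0.74, 0.130) or 4 (-0.81, 0.0936, all limma). It kept the call without control replicate 3 (-0.51, adjusted p = 0.00408, limma) or 4 (-0.91, adjusted p = 0.0201, limma). Mt2A had a log2 difference of -0.66 (SE 0.17, adjusted p = 0.0584, limma), and the shared Mt1 probe set -0.82 (SE 0.24, adjusted p = 0.0840, limma). Slc30a2 had -0.43 (SE 0.17, adjusted p = 0.168, limma). Mt2A was past the threshold without control replicate 3 (adjusted p = 0.0223) or dexamethasone replicate 4 (0.0478), the shared Mt1 probe set without dexamethasone replicate 4 (0.0439), and Slc30a2 without control replicate 3 (0.0494, all limma). For Slc39a1, Slc30a4 and Slc30a7 the difference was -0.20, 0.08 and -0.10 and was not past the threshold.

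For the 3 probe sets past the threshold and for Slc30a2, the groups did not overlap on the arrays as a whole. A positive difference in both array sets was therefore fixed in advance, and only its size is described. On the log2 scale, Slc39a8 differed by 2.46 in replicates 3 and 4 and by 2.14 in replicates 1 and 2. The shared Mt1 probe set differed by 3.05 in replicates 3 and 4 and by 1.92 in replicates 1 and 2, and Mt2A by 2.11 in replicates 3 and 4 and by 1.75 in replicates 1 and 2. Slc30a2 differed by 0.65 in replicates 3 and 4 and by 1.05 in replicates 1 and 2. The test of the difference between the sets (interaction term) was past the threshold for 0 of the 7 by limma, as for 0% of all probe sets tested. At an unadjusted p under 0.05 it was 1 of the 7, the shared Mt1 probe set, and 5.66% of all. The largest interaction among the 7 was that of the shared Mt1 probe set, 1.13 (SE 0.34, 95% confidence interval 0.37 to 1.89, adjusted p = 0.787, limma). For Slc39a8 it was 0.32 (95% confidence interval -0.47 to 1.11), and for Mt2A 0.36 (95% confidence interval -0.37 to 1.09). Without control replicate 4 the interaction was 1.40 for the shared Mt1 probe set, 0.95 for Slc30a7 and 0.82 for Slc39a8. Control replicate 3 is then the only control array of its set, so these values rest on that array and no call is given.

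**Figure D4:**
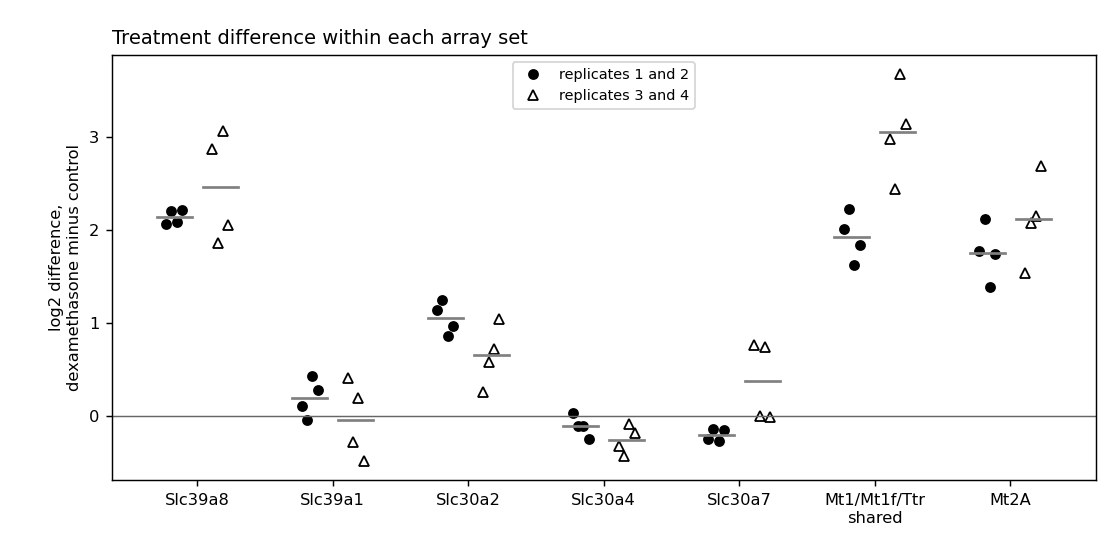
Log2 difference, dexamethasone minus control (vertical axis), of each of the 7 tested probe sets within replicates 1 and 2 (filled circles) and within replicates 3 and 4 (open triangles); each symbol is 1 dexamethasone array over 1 control array of the set, so the 4 symbols of a set share arrays, and bars are their means. All symbols of Slc39a8, Slc30a2, the shared Mt1 probe set and Mt2A are above 0, which follows from groups that do not overlap. The shared Mt1 probe set has means of 1.92 in replicates 1 and 2 and 3.05 in replicates 3 and 4.

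The factors that act on metallothionein promoters did not pass the threshold. A single probe set a gene was counted in this list and those that follow, that of its own with the highest mean signal. Of 7 listed, 6 were tested, with 0 higher and 0 lower by limma, 1 with an unadjusted p under 0.05, and a median log2 difference of -0.03. Stat3, a factor activated by cytokines, had 2628 ± 180 with dexamethasone and 2090 ± 283 in control (SD, n = 4 each; log2 difference 0.34, SE 0.11, adjusted p = 0.164, limma). A second Stat3 probe set had 779 ± 171 with dexamethasone and 497 ± 94.1 in control (SD, n = 4 each; log2 difference 0.64, SE 0.19, adjusted p = 0.0986, limma). Nr3c1, the glucocorticoid receptor, had 677 ± 48.6 with dexamethasone and 786 ± 134 in control (SD, n = 4 each; log2 difference -0.20, SE 0.14, adjusted p = 0.533, limma). Mtf1, named beside them as the metal sensor, had 364 ± 31.3 with dexamethasone and 371 ± 18.1 in control (SD, n = 4 each; log2 difference -0.03, 95% confidence interval -0.30 to 0.23).

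Among 10 genes of copper handling, 9 were tested, of which 1 was higher and 0 lower by limma, against 2.69% of all probe sets in either direction. An unadjusted p under 0.05 was found for 4 of the 9, and the median log2 difference was -0.18. Slc31a2 (Ctr2), a copper transporter of endosomes and lysosomes, rose with dexamethasone. Its signals were 1373 to 1701 on dexamethasone arrays and 680 to 1018 on control arrays, without overlap (log2 difference 0.94, SE 0.14, adjusted p = 0.00369, limma). Ceruloplasmin (Cp), the copper-binding ferroxidase, was named after its value had been seen. Its 3 probe sets were on either side of the threshold. The strongest, which entered the count, had 6628 ± 1350 with dexamethasone and 3762 ± 1080 in control (SD, n = 4 each; log2 difference 0.85, SE 0.20, adjusted p = 0.0504, limma). The other Cp probe sets had log2 differences of 1.10 (SE 0.26, adjusted p = 0.0491, limma), past the threshold, and 0.62 (SE 0.16, adjusted p = 0.0666, limma), so counted by any probe set Cp was a second copper gene higher with dexamethasone. Of 13 genes of iron and divalent metal handling, 8 had a probe set of their own and 7 were tested, with 0 higher and 0 lower by limma, 2 with an unadjusted p under 0.05, and a median log2 difference of -0.21. The transferrin receptor Tfrc had 1683 ± 415 with dexamethasone and 2555 ± 516 in control (SD, n = 4 each; log2 difference -0.62, SE 0.18, adjusted p = 0.102, limma). Slc11a2, the divalent metal transporter DMT1, had 511 ± 36.6 with dexamethasone and 625 ± 89.6 in control (SD, n = 4 each; log2 difference -0.28, SE 0.13, adjusted p = 0.307, limma). Second probe sets had -0.19 for Tfrc (adjusted p = 0.730, limma) and 0.20 for Slc11a2 (adjusted p = 0.618, limma), which for Slc11a2 is the opposite sign. Probe sets shared with other genes were tested for 3 more of the list and were not past the threshold, with log2 differences of 0.63 for transferrin (Tf, shared with Srprb; adjusted p = 0.125, limma), 0.26 for Ftl1 (adjusted p = 0.209, limma) and 0.02 for Fth1 (adjusted p = 0.948, limma), the light and heavy chains of ferritin.

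The genes whose log2 signal followed each member most closely over the 8 arrays are given as a description, by Pearson's r over n = 8 arrays that share the treatment difference and the scaling. For Slc39a8 they were Celf2, a splicing regulator (r = 0.992), Vmp1, a membrane protein needed for autophagy (r = 0.992), and Nfil3, a transcriptional repressor (r = 0.991). For the shared Mt1 probe set they were Gpnmb (r = 0.982), Fnip1 (r = 0.980) and Tmem64 (r = 0.977). For Mt2A they were Abhd14b (r = 0.988), Trim63, a muscle ubiquitin ligase known to be induced by glucocorticoids (r = 0.986), and Ankrd40 (r = 0.985). The genes closest to Slc39a8, the shared Mt1 probe set and Mt2A were all higher on each dexamethasone array than on each control array. This follows largely from picking them by r with probe sets whose groups do not overlap. The pattern of Slc30a1, under the silent-gene level, was closest to Qtrt1 (r = 0.977), Marchf6 (r = 0.970) and Aldh1a2 (r = 0.969), none of which separated the groups.

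Markers of other cells were set beside these results. The summed signal of 6 endothelial markers was 2792 to 3338 on dexamethasone arrays and 991 to 1272 on control arrays. Within it Kdr, the receptor Vegfr2, was at 2528 to 3028 with dexamethasone and 492 to 844 in control, Flt1, the receptor Vegfr1, was at 19.3 to 85.8 with dexamethasone and 168 to 197 in control, and Pecam1, Tie1, Vwf and Emcn were above the silent-gene level on no array. The sum of 11 macrophage markers was 1358 to 5013 on dexamethasone arrays and 1027 to 1629 on control arrays. Lyz2, the lysozyme of phagocytes, reached 3415 on dexamethasone replicate 1 and 969 on the next array. Cd14, a receptor for bacterial lipopolysaccharide, was at 379 to 782 with dexamethasone and 168 to 338 in control, without overlap, and was above the silent-gene level on 7 arrays. Aif1 was above it on 6 arrays, Fcer1g on 5, Lyz2 on 4 and Csf1r on 2, and Ptprc, Cd68, Itgam, Tyrobp, C1qa and C1qb on none. Without dexamethasone replicate 1 the log2 differences were 2.21 for Slc39a8, 2.38 for the shared Mt1 probe set and 1.79 for Mt2A. Cd14 was highest on dexamethasone replicate 4, so leaving out replicate 1 does not remove these markers and cannot decide on their part. The sum of 6 cartilage and bone markers was 2761 to 6680 on dexamethasone arrays and 2265 to 6147 on control arrays, with Col2a1 and Col9a1 above the silent-gene level on all 8 arrays and Acan, Comp, Bglap and Ibsp on none. The sum of 10 fibroblast markers was 4589 to 7491 on dexamethasone arrays and 5840 to 7477 on control arrays, with Col1a1, Col1a2, Col3a1 and Postn above the silent-gene level on all 8 arrays, Fap on 3, and Dcn, Lum, Pdgfra, Pdgfrb and Thy1 on none. When the fit also held the beta-actin ratio (log2), the log2 difference was 1.60 for Slc39a8 and 1.61 for the shared Mt1 probe set, both past the threshold. For Mt2A it was 1.63, no longer past the threshold. The ratio was lower on each dexamethasone array (6.17 to 8.07) than on each control array (8.10 to 13.7). This fit therefore cannot tell the ratio apart from treatment. The parts of other cells and of RNA length in the dexamethasone differences were not tested.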

How the data were processed

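The deposited values are linear signal intensities in arbitrary units, 1 per probe set and array. The authors made them with the Affymetrix statistical algorithms, after labelling by in vitro transcription, and per the labels scaled each array to a target of 500. The software version is not given in the sources used here. The table holds 15923 probe sets, of which 57 are controls. The deposited platform annotation gives 1 gene to 12783 of the others, several to 312 and none to 2771. Members were matched by symbol. The 3 probe sets of Slc40a1, which carries Slc39a1 as an old synonym, were left out.

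Each array was multiplied to a trimmed mean of 500 (2% left out at each end), and log2 was taken of the signals after a floor of 16. Probe sets with a mean of at least 100 (10368) were tested with limma 3.58.1 in R 4.3.3 (lmFit, eBayes with trend, two-sided, Benjamini-Hochberg at 0.05), first tested on simulated data. Fits were treatment alone, treatment with array set, and their interaction. Probe sets under the filter were read from a fit over all. The number of arrays limits the precision.

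Members, gene lists and tests were chosen with earlier results of these data known, so members have no p for the treatment difference. Named genes were all members, list genes past the threshold or else the 2 of a list with the smallest p, and the 3 genes most like Slc39a8, Slc30a1, Mt1 and Mt2A. The lists were other ZIP and ZnT genes, factors of metallothionein promoters, copper and iron handling, and cell type markers. Of the last, 1 of 3 melanocyte, 5 of 6 neuronal and 2 of 2 hair cell markers were above the silent-gene level on no array, and summed signals of these lists overlapped between the groups. Of 4 sodium transport markers, 1 was above it on all arrays. Promoter windows came from RefSeq (GRCr8). Protein sequences were not analysed here. Alternatives changed the scaling, filter, floor, variance model, block, covariate, arrays, estimate and call rule.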

Additional observations from a re-analysis of the deposited data

Results flagged for a closer look

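Slc30a7 had a signal of 257 on control replicate 3, apart from the other 3 control arrays, which lay between 420.0 and 454. The gap to the nearest of them was 0.864 of the group's range, above Dixon's 95% critical value for 4 samples. Chance marks about 1 in 20 groups in this way, and 20 groups were looked at, of which 1 was marked. Control replicate 3 is the array with the largest rescaling factor, and its part in this value was not tested.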

How the results depend on the processing

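The dexamethasone contrast gave 279 calls (195 higher, 84 lower). It gave 36 (34 higher, 2 lower) on the signals as deposited, which move the median of all probe sets from -0.02 to 0.14 on the log2 scale. A median ratio past 1.3-fold, which has no test, held for 1494. That rule is modelled on the paper's methods, but it used rescaled summary signals, without the paper's probe-pair ratios and detection calls. The contrast gave 102 calls without the filter, 65 with the beta-actin ratio as a covariate, 578 with the array set as a block and 484 with the replicate block. It gave 434 in replicates 1 and 2 alone and 21 in replicates 3 and 4 alone. Leaving out 1 array gave 179 to 277, with 184 without dexamethasone replicate 1 and 179 without dexamethasone replicate 2. Deviations of arrays with the same number correlated at 0.03 to 0.41, and 2 of 4 dexamethasone arrays correlated best with the control array of their own number, so the numbers are not shown to pair the samples. Between array sets, 362 calls (155 higher, 207 lower) became 815 with median centring (701 higher, 114 lower, with the median of all moved to 0.10), 92 without the filter and 148 without the trend, and ranged from 23 without dexamethasone replicate 2 to 1515 without control replicate 3. The interaction gave 0 calls, 4 without the filter, and 0 to 469 with 1 array left out, 469 without control replicate 4. The cause was not tested.

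No member changed direction where it was called. Over all alternatives the log2 difference was 1.60 to 2.47 for Slc39a8, 1.63 to 2.13 for Mt2A, 1.24 to 3.05 for the shared Mt1 probe set (1.24 as a mean with the Mt1 probe set under the floor) and 0.65 to 1.05 for Slc30a2. Without the filter, of these Slc39a8 alone was called, in replicates 3 and 4 alone the shared Mt1 probe set and Mt2A, and with the beta-actin covariate Slc39a8 and the shared Mt1 probe set. All 3 were called under the other alternatives with a test. Slc30a2 was also called with quantile normalization, median centring, either block, replicates 1 and 2 alone, and without dexamethasone replicate 3. The array-set call of Slc39a8 was lost with median centring (-0.60, adjusted p = 0.0908), without the filter (0.164) and without the trend (0.0943, all limma). Signals under the silent-gene level limit what can be said of Slc30a1, Mt3 and the probe set of Mt1 alone.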
